A study of Mus musculus with 40 samples.

Results

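The 10 genes described here are immediate early genes, which neurons and other cells switch on within minutes of a stimulus, before any new protein is made. They were chosen by name, with earlier results of these data known: Fos, Fosb, Junb, Egr1, Egr2, Arc, Npas4, Nr4a1, Dusp1 and Ier2. All 10 were among the 40213 gene symbols of the deposited count files, and all 10 passed the filter on low counts in each tissue. The data were poly(A) RNA-seq libraries from midbrain and spinal cord of male C57BL/6N mice aged 8 weeks, 40 libraries in 10 groups of 4.

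Control mice (Con) received saline in place of the toxin, and saline at the acupoint GB34 below the knee. The other 4 groups received MPTP, a neurotoxin that kills dopamine neurons, as 4 intraperitoneal injections of 20 mg/kg on 1 day. Of these, MPTP-Veh received saline at GB34, as Con did. MPTP-SU received SUEHP, a herbal pharmacopuncture extract, at GB34 in 4 injections that began 1 week after the toxin. MPTP-SU+S received SUEHP with a CB1 cannabinoid receptor antagonist at 3 mg/kg, which the labels spell SR141714A and the study's methods SR141716A. MPTP-SU+T received SUEHP with the PPARγ inhibitor T0070907 at 5 mg/kg. Whether Con and MPTP-SU mice received the solvent of the antagonists was not stated in the sources used here, nor was the time between the last injection, the anaesthesia with avertin and the freezing of the tissue. The sources also did not state that a midbrain and a spinal cord library with the same number came from 1 mouse. P-values therefore measure the spread between libraries that the labels list as separate samples.

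Immediate early genes respond to calcium entry and to growth factor signals through kinases that act on transcription factors already bound at their promoters, among them CREB and SRF. Their messenger RNAs are short-lived, so a level in frozen tissue reflects the period just before death, including handling and anaesthesia. Fos is widely used as a marker of spinal neurons that respond to painful input, and the study stained its protein in the dorsal horn for that purpose. It reported more c-Fos-positive cells there after MPTP, and fewer when SUEHP was given at GB34. Either antagonist weakened that reduction, though the study called its c-Fos results not entirely conclusive. Those are counts of cells with the protein in the dorsal horn, not messenger RNA levels of a tissue piece. The comparisons below ask whether the messenger RNAs of Fos and its companions differed between treated and control mice in whole pieces of the same tissues. In bulk tissue, fewer cells that express a gene and less RNA per cell cannot be told apart.

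Promoter windows of 7 members were found in the RefSeq table for GRCm38.p6, from 250 bases before to 50 bases after the annotated start. Egr1, Arc and Ier2 were not in the table. The build of the deposited counts is GRCm39 per the submitters' processing notes, so these coordinates serve only to place the sequences. Each window was searched on both strands for the cyclic AMP response element TGACGTCA, bound by CREB, for its core TGACG, which lies inside it, for the CArG box bound by SRF, and for the TATA box TATAAA. The core TGACG was in the windows of 7 of 7 members and of 23.05% of the 27025 genes in the table. The full TGACGTCA was in the window of Dusp1 alone among the 7 and in 2.03% of genes, and the CArG box was in windows of Egr2 alone among the 7 and in 1.81% of genes. The 4 windows that follow are shown because they hold the full element (Dusp1), the CArG box (Egr2), the most copies of the core (Nr4a1) and the core with a TATA box (Fos). The Egr2 window shown is 1 of its 5 annotated windows, and others of them hold a CArG box too. Capitals mark the matches, and every sequence runs 5′ to 3′ along the gene.
Fos, chr12:85473640-85473939, plus strand: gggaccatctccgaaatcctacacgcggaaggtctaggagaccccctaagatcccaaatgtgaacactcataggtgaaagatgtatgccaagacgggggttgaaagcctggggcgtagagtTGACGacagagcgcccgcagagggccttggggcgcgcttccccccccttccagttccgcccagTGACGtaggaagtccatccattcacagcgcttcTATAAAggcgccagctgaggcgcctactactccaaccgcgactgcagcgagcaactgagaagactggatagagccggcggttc
Egr2, chr10:67537619-67537918, plus strand: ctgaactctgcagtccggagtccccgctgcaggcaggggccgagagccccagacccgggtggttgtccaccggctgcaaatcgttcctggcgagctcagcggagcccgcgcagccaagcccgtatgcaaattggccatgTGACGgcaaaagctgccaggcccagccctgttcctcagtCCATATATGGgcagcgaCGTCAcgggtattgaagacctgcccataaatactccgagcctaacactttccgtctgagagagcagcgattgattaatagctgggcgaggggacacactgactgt
Nr4a1, chr15:101266596-101266895, plus strand: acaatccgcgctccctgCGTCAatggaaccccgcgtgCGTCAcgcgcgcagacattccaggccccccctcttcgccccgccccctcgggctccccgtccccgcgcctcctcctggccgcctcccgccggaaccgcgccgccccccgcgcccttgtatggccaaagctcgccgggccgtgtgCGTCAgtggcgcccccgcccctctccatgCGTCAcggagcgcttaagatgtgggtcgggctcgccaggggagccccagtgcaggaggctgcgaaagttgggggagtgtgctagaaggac
Dusp1, chr17:26508423-26508722, minus strand: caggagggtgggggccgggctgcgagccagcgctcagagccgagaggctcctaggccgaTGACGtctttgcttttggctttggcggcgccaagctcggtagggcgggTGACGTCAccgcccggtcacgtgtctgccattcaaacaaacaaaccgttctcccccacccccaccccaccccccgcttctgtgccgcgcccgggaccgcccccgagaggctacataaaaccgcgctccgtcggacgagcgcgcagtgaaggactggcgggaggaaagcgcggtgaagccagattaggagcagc
In the Fos window the 2 cores began 129 and 66 bases before the start and the TATA box 33 bases before it. The Nr4a1 window held 4 cores, all on the opposite strand and read in the printed strand as their reverse complement. A match is a run of letters and was not tested as a binding site.

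Depth ranged from 11958200 to 16639823 counts in midbrain and from 14642808 to 16615378 in spinal cord, and levels are given as CPM, counts scaled by TMM to a common library size. Tissue identity was checked on marker genes. The summed CPM of 10 Hox genes was 0 to 1.79 in midbrain libraries and 550.2 to 666.9 in spinal cord libraries, and that of 12 midbrain genes was 171.1 to 423.3 and 36.5 to 45.04, respectively. A midbrain library, MPTP-Veh replicate 4, stood apart: mitochondrial messenger RNAs took 1.35% of its counts against at least 9.92% in the other 19, and its rank correlation with the median of the others was 0.888 against at least 0.987. Summed red blood cell genes reached 2529 CPM in MPTP-Veh against at most 402.3 CPM in the other midbrain groups. Nuclear long RNAs also stood apart in MPTP-Veh, with summed levels of 8904 to 14762 CPM against 6437 to 8238 CPM in the other midbrain groups, and summed glucocorticoid response genes were 622.0 to 1124 CPM in MPTP-Veh against 453.6 to 569.5 CPM in MPTP-SU. The part of these differences in the midbrain comparisons with MPTP-Veh was not tested.

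A call below means a Benjamini-Hochberg adjusted p below 0.05 over all genes tested with edgeR's quasi-likelihood test, together with a fold change above 1.5. A log2 fold change is the fitted difference of the group named first minus the other, with its standard error (SE).

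The levels of the members themselves differed widely. Divided by transcript length, Egr1, a zinc finger transcription factor of active neurons, had the highest level in both tissues, with 11.01 ± 4.88 CPM per kb in midbrain and 8.69 ± 1.93 CPM per kb in spinal cord (SD, n = 20). Dusp1, a phosphatase that switches off MAP kinases, followed in midbrain with 8.48 CPM per kb and Arc, which removes receptors from synapses, with 8.07 CPM per kb. In spinal cord Arc was next at 7.41 CPM per kb, then Fos at 5.34 and Dusp1 at 5.32 CPM per kb, which did not differ beyond their spread of 1.40 and 0.691. The lowest levels were 0.158 CPM per kb for Egr2 in midbrain and 0.774 CPM per kb for Fosb in spinal cord. Counts of Egr2 in midbrain libraries were 0 to 18, so its midbrain folds are poorly determined.

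**Figure D1:**
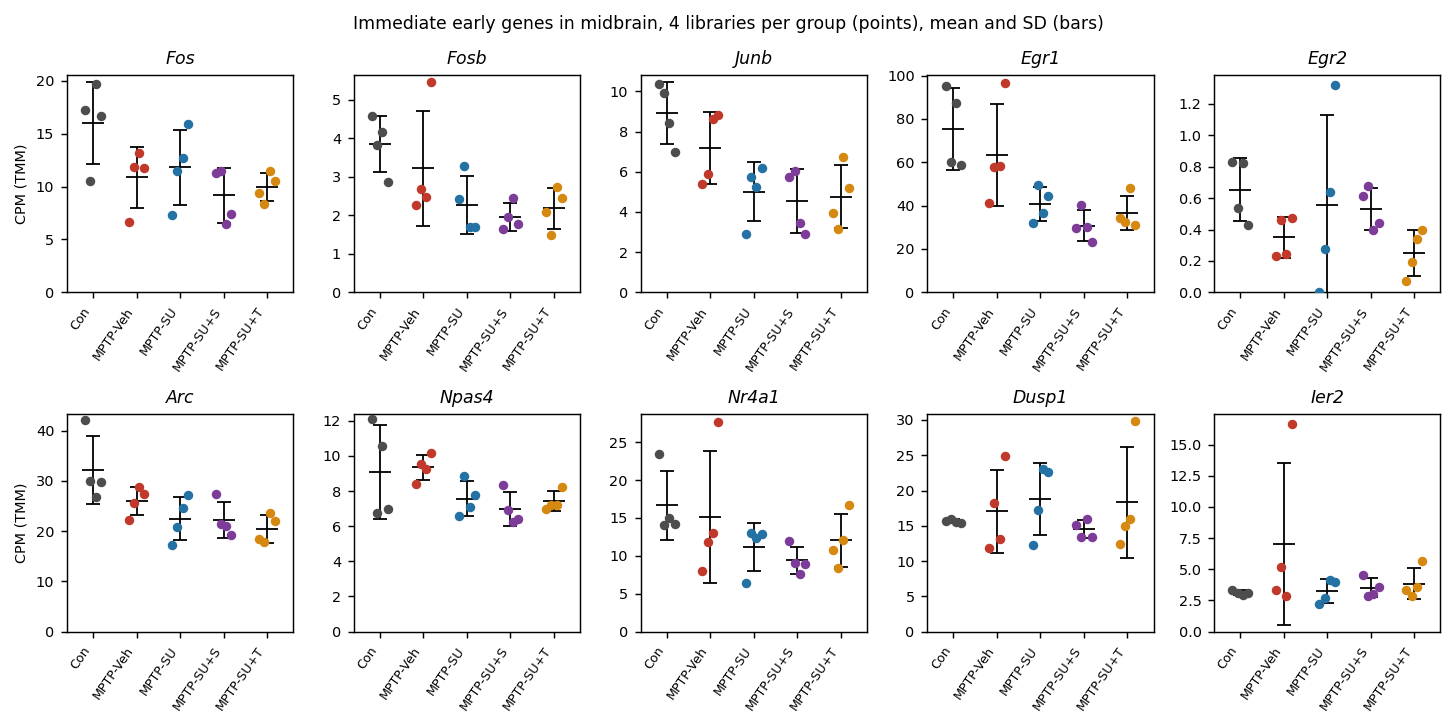
CPM of each of the 10 members in the 20 midbrain libraries, 1 panel per gene, with groups on the horizontal axis and CPM on the vertical axis from 0. Points are libraries and bars the mean and SD of 4; Con has the highest mean for 7 of the 10 genes, and MPTP-Veh replicate 4 gives the high points of Egr1 (96.8), Nr4a1 (27.7) and Ier2 (16.7).

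**Figure D2:**
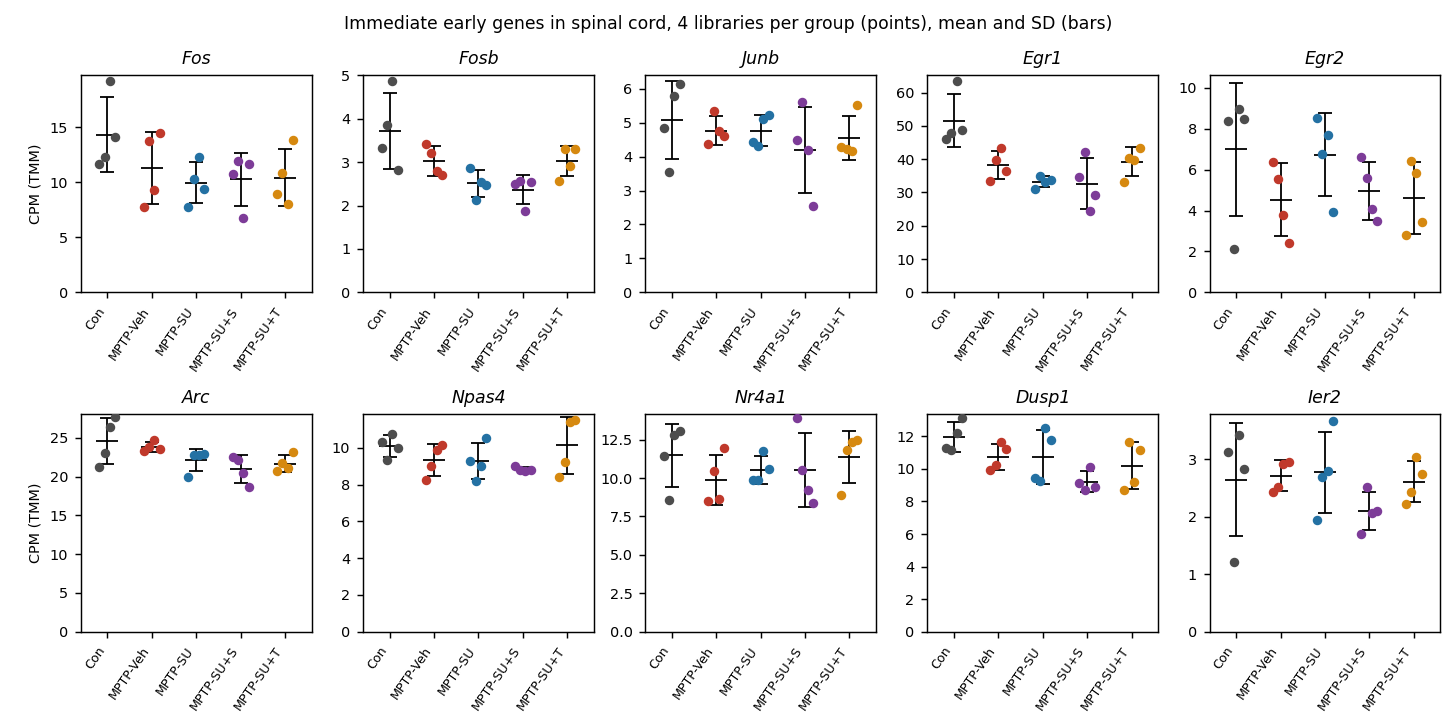
CPM of each of the 10 members in the 20 spinal cord libraries, drawn as for midbrain. The 16 libraries of MPTP-treated mice lie below all 4 Con libraries for Egr1 (24.4 to 43.5 against 46.0 to 63.5), as for 0.0899% of tested genes. The 16 and Con overlap for the other 9 genes.

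Fos, Fosb and Junb encode subunits of AP-1, the dimeric transcription factor made by a Fos and a Jun protein. In spinal cord, the tissue of the question about pain, Fos was 11.7, 12.3, 19.2 and 14.1 CPM in Con and 7.79, 13.7, 9.31 and 14.4 CPM in MPTP-Veh. It was 7.80, 10.3, 12.3 and 9.44 CPM in MPTP-SU, 10.7, 11.9, 6.77 and 11.7 CPM in MPTP-SU+S, and 8.95, 10.8, 8.06 and 13.9 CPM in MPTP-SU+T. The groups overlapped in all 5 pairwise comparisons, and the highest value was a Con library. No rise of Fos after MPTP was detected: the log2 fold change of MPTP-Veh against Con was −0.35 (SE 0.20, adjusted p = 0.485), with a 95% interval of −0.77 to 0.07. MPTP-SU against MPTP-Veh gave −0.18 (SE 0.21, adjusted p = 0.999), with a 95% interval of −0.61 to 0.25. With an antagonist added to SUEHP the values were 0.05 for SU+S (95% interval −0.39 to 0.48) and 0.07 for SU+T (−0.37 to 0.50). A missed threshold does not show equal levels.

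In midbrain Fos was 17.3, 10.6, 19.7 and 16.6 CPM in Con and 6.69, 11.8, 13.2 and 11.8 CPM in MPTP-Veh, with 1 Con library inside the MPTP-Veh range. The log2 fold change was −0.56 (SE 0.25, adjusted p = 0.195, exact permutation p = 0.114). Fos ranged over 7.31 to 15.9 CPM in MPTP-SU, 6.48 to 11.4 CPM in MPTP-SU+S and 8.39 to 11.5 CPM in MPTP-SU+T. No comparison of Fos between groups was called in midbrain.

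Fosb, a Fos relative whose splice forms accumulate with repeated stimulation, was 3.32, 3.85, 4.87 and 2.82 CPM in spinal cord of Con and 2.87, 2.13, 2.55 and 2.48 CPM in MPTP-SU. A single MPTP-SU library reached the lowest Con library, and the log2 fold change was −0.57 (SE 0.17, unadjusted p = 0.00331, adjusted p = 0.47). In midbrain Fosb was 4.58, 3.82, 4.17 and 2.88 CPM in Con and 2.41, 3.28, 1.68 and 1.69 CPM in MPTP-SU, with a fitted log2 difference of −0.77 (SE 0.29, adjusted p = 0.186). Junb, a Jun partner of Fos proteins, separated these groups in midbrain: 10.4, 9.90, 8.40 and 6.97 CPM in Con and 2.88, 5.74, 5.23 and 6.16 CPM in MPTP-SU. All 4 MPTP-SU libraries lay below all 4 Con libraries, which 10.9% of tested genes did in the same direction, and the log2 fold change was −0.83 (SE 0.28, adjusted p = 0.145). In spinal cord Junb gave −0.10 (SE 0.18) in the same comparison, with overlapping groups, and the difference between tissues was −0.74 (SE 0.35, adjusted p = 0.387).

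Egr1 and Egr2 encode zinc finger transcription factors that share a DNA-binding domain. Egr1 in midbrain was 95.3, 59.9, 87.5 and 58.8 CPM in Con and 41.2, 58.0, 58.3 and 96.8 CPM in MPTP-Veh, where the high value was the library that stood apart. It was 32.0, 49.4, 36.4 and 44.5 CPM in MPTP-SU, 29.8, 40.2, 30.1 and 23.2 CPM in MPTP-SU+S, and 34.5, 32.3, 48.1 and 31.2 CPM in MPTP-SU+T. The 12 libraries of the 3 SUEHP-treated groups were all below the 4 Con libraries, which held for 3.99% of tested genes and, among the members, also for Junb. MPTP-Veh overlapped Con. Egr1 was the only member that differed in the joint test of the 5 midbrain groups (adjusted p = 0.00963), a test that 7.1% of all tested genes passed. MPTP-SU against Con gave a fitted log2 difference of −0.89 (SE 0.24, adjusted p = 0.0694), and MPTP-SU against MPTP-Veh gave −0.65 (SE 0.24, adjusted p = 0.061). Without MPTP-Veh replicate 4 the value against MPTP-Veh was −0.37 (adjusted p = 0.253), and without MPTP-Veh replicate 1 it was −0.80 and called (adjusted p = 0.0253). With DESeq2 both passed the call rule, at adjusted p = 0.0155 and 0.0375.

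In spinal cord Egr1 was 46.0, 47.9, 63.5 and 48.9 CPM in Con, 33.3, 39.7, 43.2 and 36.6 CPM in MPTP-Veh and 31.1, 35.0, 33.1 and 33.8 CPM in MPTP-SU. It was 34.6, 42.3, 24.4 and 29.1 CPM in MPTP-SU+S and 33.1, 40.4, 39.9 and 43.5 CPM in MPTP-SU+T. Every library of the 4 MPTP groups was below every Con library, which held for 0.0899% of tested genes. Some marker sums also moved between MPTP-Veh and Con without overlap, as did 4.73% of single tested genes. Microglia were 247.6 to 263.1 against 204.1 to 239.7 CPM, and oligodendrocytes 21247 to 21968 against 18853 to 21099 CPM. Heat shock and stress genes were 5045 to 5239 against 5419 to 5675 CPM. Nuclear long RNAs were 8336 to 8719 against 8923 to 10370 CPM. Their part in the level of Egr1 was not tested. MPTP-Veh against Con gave −0.43 (SE 0.12, adjusted p = 0.214) and MPTP-SU against Con −0.63 (SE 0.12, unadjusted p = 3.46e-05, adjusted p = 0.177), with an exact permutation p of 0.0286 for each, the smallest that 4 libraries against 4 can give. In each of these comparisons 2.47% and 1.87% of tested genes, respectively, had all 4 libraries of the treated group below all 4 of Con. MPTP-SU lay 0.20 below MPTP-Veh on the log2 scale (95% interval −0.46 to 0.06), and MPTP-SU+T lay 0.24 above MPTP-SU (−0.02 to 0.50), neither with an adjusted p below 0.05. The call of MPTP-SU against Con depended on the setting: adjusted p was 0.00143 with DESeq2, 0.000621 with no filter on low counts and 0.0343 without Con replicate 2, and over all alternatives it ran from 0.000621 to 0.738.

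Egr2 is known in brain as an early gene and in peripheral nerve as the regulator of myelin genes in Schwann cells. In spinal cord it was 8.37, 2.11, 8.98 and 8.47 CPM in Con, 6.39, 5.55, 3.77 and 2.43 CPM in MPTP-Veh and 8.55, 6.77, 7.71 and 3.91 CPM in MPTP-SU. The groups overlapped, with a fitted log2 difference of −0.63 (SE 0.34, adjusted p = 0.445) for MPTP-Veh against Con and 0.57 (SE 0.34, adjusted p = 0.999) for MPTP-SU against MPTP-Veh. The 4 MPTP groups against Con, a comparison described below, gave a call only without Con replicate 2, the low Con library, at −0.74 (adjusted p = 0.0492). The spread within groups followed 7 Schwann cell genes, a list added after the data had been seen. Over the 20 spinal cord libraries with group means subtracted, log2 Egr2 and the log2 of their summed CPM correlated with Pearson r = 0.91 (permutation p = 0.00017) and Spearman rho = 0.81 (permutation p = 9e-05). Without the 2 libraries farthest from the median marker sum, r was 0.86. The sum ran from 444.2 to 1107 CPM in spinal cord, and Prx, which encodes periaxin of myelinating Schwann cells, from 38.6 to 141.6 CPM. In midbrain the sum was 87.5 to 124.8 CPM, the median of Prx was 0.309 CPM, and r was 0.35 (permutation p = 0.16, rho = 0.43 with p = 0.108). The part of nerve roots in the level of Egr2 was not tested.

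**Figure D3:**
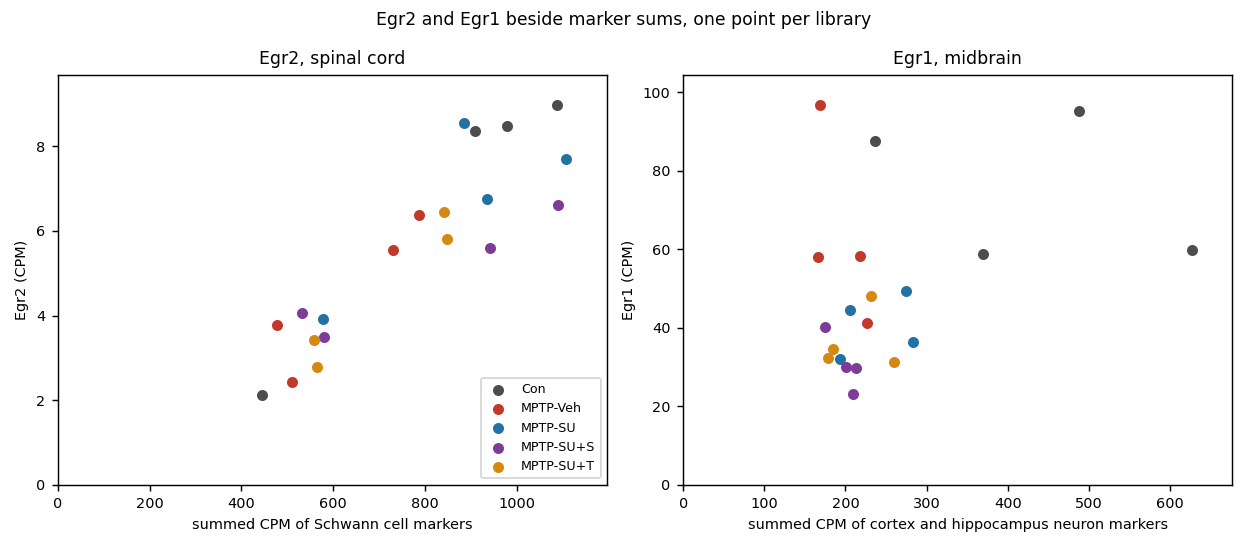
Left, CPM of Egr2 against the summed CPM of 7 Schwann cell genes in the 20 spinal cord libraries; right, CPM of Egr1 against the summed CPM of 10 cortex and hippocampus neuron genes in the 20 midbrain libraries, 1 point per library, coloured by group. Egr2 is lowest at the lowest sum (2.11 CPM at 444.2) and is 8.98 CPM at a sum of 1087; 3 of the 4 Con midbrain libraries lie to the right of all others.

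Npas4 and Nr4a1 are transcription factors of other families, Npas4 being induced mainly by calcium entry in neurons and Nr4a1 being an orphan nuclear receptor. Npas4 was 12.1, 6.74, 10.6 and 6.97 CPM in midbrain of Con against 8.40, 9.55, 9.28 and 10.2 CPM in MPTP-Veh. It ranged over 6.57 to 8.88 CPM in MPTP-SU, 6.21 to 8.33 CPM in MPTP-SU+S and 6.98 to 8.26 CPM in MPTP-SU+T. In spinal cord all 20 libraries lay between 8.21 and 11.5 CPM. Its largest fitted difference in a pairwise comparison was −0.30 (SE 0.17, adjusted p = 0.196), for MPTP-SU against MPTP-Veh in midbrain. Nr4a1 in midbrain was 23.4, 14.1, 14.98 and 14.1 CPM in Con, 7.94, 11.8, 13.1 and 27.7 CPM in MPTP-Veh and 6.37, 13.0, 12.4 and 12.8 CPM in MPTP-SU. All MPTP-SU libraries were below all Con libraries, as for 10.9% of tested genes, with a fitted log2 difference of −0.58 (SE 0.32, adjusted p = 0.389). Against MPTP-Veh the value was −0.43 (SE 0.32) with all libraries and 0.02 without MPTP-Veh replicate 4, so its direction rested on that library. In spinal cord Nr4a1 was 8.39 to 13.9 CPM over the 20 libraries, with overlap in all comparisons.

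Arc in spinal cord was 21.3, 23.0, 26.4 and 27.6 CPM in Con, 23.3, 23.8, 24.8 and 23.5 CPM in MPTP-Veh and 20.0, 22.7, 22.8 and 22.9 CPM in MPTP-SU. The 4 MPTP-SU libraries lay just below the 4 MPTP-Veh libraries, which 1.86% of tested genes did, but the difference was −0.11 (SE 0.08, adjusted p = 0.999). In midbrain Arc was 42.1, 30.1, 26.7 and 29.7 CPM in Con, 22.3, 25.5, 28.7 and 27.4 CPM in MPTP-Veh and 17.3, 20.8, 24.6 and 27.1 CPM in MPTP-SU. MPTP-SU against Con gave −0.52 (SE 0.16, unadjusted p = 0.005, adjusted p = 0.118), with 1 MPTP-SU library inside the Con range.

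Dusp1 in midbrain was 15.7, 15.98, 15.5 and 15.4 CPM in Con, a span of less than 1 CPM, and 11.9, 18.3, 13.2 and 24.8 CPM in MPTP-Veh. It was 12.3 to 23.1 CPM in MPTP-SU, 13.4 to 16.0 CPM in MPTP-SU+S and 12.5 to 29.9 CPM in MPTP-SU+T, so the treated groups lay on both sides of Con. Ier2, a small nuclear protein induced by serum, was 3.37, 3.10, 2.97 and 3.06 CPM in midbrain of Con and 3.35, 5.17, 2.89 and 16.7 CPM in MPTP-Veh. The 16.7 CPM were in the library that stood apart. MPTP-Veh against Con gave a fitted log2 difference of 1.14 (SE 0.42, adjusted p = 0.14) with it and 0.28 (adjusted p = 0.724) without it, and MPTP-SU against MPTP-Veh −1.08 (SE 0.42, adjusted p = 0.0681) and −0.22 (adjusted p = 0.632). Without MPTP-Veh replicate 3, which leaves that library more weight, both were called, at 1.40 (adjusted p = 0.0458) and −1.34 (adjusted p = 0.0219). In spinal cord Dusp1 was 8.69 to 13.2 CPM and Ier2 1.21 to 3.66 CPM over all libraries, and neither was called in any comparison.

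No member was called in any of the 5 pairwise comparisons in either tissue, with edgeR. In midbrain the share of all 16629 tested genes called was 0.018% for MPTP-Veh against Con, 13.5% for MPTP-SU against MPTP-Veh, 0.764% for MPTP-SU against Con and 0% for each antagonist against MPTP-SU, where 1.65% (SU+S) and 1.7% (SU+T) had an unadjusted p below 0.05. In spinal cord the shares of 16682 genes were 0.024% for MPTP-SU+T against MPTP-SU and 0% in the others, where 12.8% (MPTP-Veh against Con), 3.81% (MPTP-SU against MPTP-Veh), 5.49% (MPTP-SU+S against MPTP-SU) and 9.17% (MPTP-SU against Con) had an unadjusted p below 0.05. The joint test of the 5 spinal cord groups was passed by 0.15% of genes and by no member, Egr1 being lowest at adjusted p = 0.0592. At an unadjusted p below 0.05, midbrain MPTP-Veh against Con had 1 member higher (Ier2) and 1 lower (Fos), where 15.6% and 8.15% of all genes were past that limit. MPTP-SU against MPTP-Veh had 2 lower (Egr1 and Ier2; 22.1% of genes), and MPTP-SU against Con had 4 lower (Fosb, Junb, Egr1 and Arc; 8.79% of genes). In spinal cord MPTP-Veh against Con had 1 member lower at that limit (Egr1; 6.68% of genes), and MPTP-SU against Con had 3 (Fos, Fosb and Egr1; 4.63% of genes). No member passed it for either antagonist. DESeq2 called Egr1 and Ier2 in midbrain for MPTP-SU against MPTP-Veh, and Egr1 in each tissue for MPTP-SU against Con. The share of all genes called was not taken with DESeq2.

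**Figure D4:**
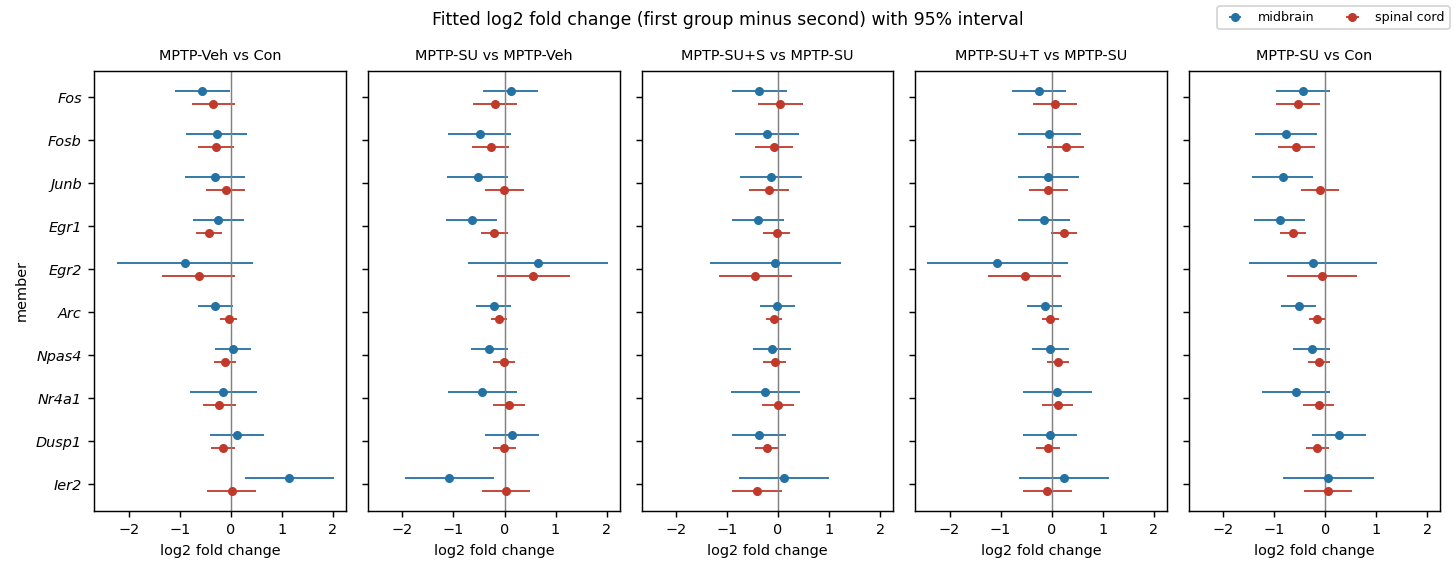
Fitted log2 fold change of each member (vertical axis) in the 5 pairwise comparisons, 1 panel each, with midbrain in blue and spinal cord in red. Points are estimates and lines 95% intervals; most intervals cross 0, and Egr1 in MPTP-SU against Con lies left of 0 in both tissues (−0.89 and −0.63).

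The directions leaned downward in the comparisons with Con. The log2 fold change was negative for 7 of 10 members in midbrain and 9 of 10 in spinal cord for MPTP-Veh against Con, with medians of −0.26 and −0.19, while 50% and 50.6% of all genes were negative. For MPTP-SU against Con it was negative for 8 and 9 of 10, with medians of −0.48 and −0.14, against 49% and 51% of all genes. By the difference in mean log2 CPM, Egr2 and Ier2 were both positive in that spinal cord comparison, at 0.086 and 0.13. MPTP-Veh and MPTP-SU share the Con libraries, so these counts are not independent of each other. Levels of the members also varied together within groups, with a median pairwise r of 0.51 in midbrain and 0.35 in spinal cord. The 10 signs within a comparison are therefore not independent observations. For MPTP-SU against MPTP-Veh, 7 of 10 were negative in each tissue, with medians of −0.37 in midbrain and −0.0044 in spinal cord, against 50% and 49.9% of genes. Without midbrain MPTP-Veh replicate 4 the midbrain count was 6 of 10 with a median of −0.16, and the median of MPTP-Veh against Con was −0.47 with 8 of 10 negative. In spinal cord the count was 5 of 10 with RLE size factors and 6 of 10 without mitochondrial and haemoglobin genes, so no direction can be given for it there. The antagonists gave 9 of 10 negative for SU+S in each tissue (medians −0.18 and −0.080), against 48.5% and 49.9% of genes. By library size alone the midbrain SU+S count was 7 of 10 with a median of −0.10. With RLE size factors the spinal cord SU+S count was 8 of 10. By the difference in mean log2 CPM, Egr2 and Ier2 were both positive for SU+S in midbrain, at 0.41 and 0.13. For SU+T the counts were 8 of 10 in midbrain (median −0.056) and 5 of 10 in spinal cord (median 0.020), against 48% and 48.1% of genes. With library size alone as the scaling, the midbrain SU+T count became 4 of 10 with a median of 0.046, so no direction can be given for it. That scaling also moved the median of all genes by −0.11 in midbrain for MPTP-SU against Con, where 9 of 10 members were then negative with a median of −0.60.

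Because Con stood out in several panels, the 4 MPTP groups together were compared with Con, a comparison added after the data had been seen. Their libraries also came from mice that differed in later treatment. In midbrain Egr1 was the only member called, with 42.9 ± 17.6 CPM in 16 libraries against 75.4 ± 18.8 CPM in 4 (SD) and a fitted log2 difference of −0.87 (SE 0.18, adjusted p = 0.0136), where 1.27% of all genes were called. Arc gave −0.50 (SE 0.12, adjusted p = 0.041), which is under the fold limit. Fos, Fosb and Junb gave −0.62, −0.71 and −0.76, with adjusted p = 0.118, 0.115 and 0.0785. Npas4, Nr4a1 and Egr2 gave −0.22, −0.51 and −0.68 and did not pass, and Dusp1 and Ier2 were positive at 0.13 and 0.42, so that 8 of 10 were negative against 45.6% of genes. Without Con replicate 1 or 3 no member was called, Egr1 being at −0.74 (adjusted p = 0.0851) and −0.79 (adjusted p = 0.0588). Without MPTP-Veh replicate 4, 5 members were called (Fos, Fosb, Junb, Egr1 and Nr4a1), with adjusted p from 0.00073 to 0.0393, where 2.73% of all genes were called.

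In spinal cord all 10 members had a negative fitted log2 fold change in the 4 MPTP groups against Con, with a median of −0.20. Of all genes 51% were negative. By the difference in mean log2 CPM, Ier2 was positive at 0.019. No member was called (0.00599% of genes). Egr1 passed the adjusted p but not the fold limit, with 35.8 ± 5.37 CPM in 16 libraries against 51.6 ± 8.02 CPM in 4 (SD) and a fitted log2 difference of −0.53 (SE 0.09, adjusted p = 0.0278). Its exact permutation p over the 20 libraries was 0.000413, and 0.0899% of tested genes, 15 of 16682, had all 16 libraries below all 4 of Con. Without each library in turn and under the other settings the Egr1 value ran from −0.58 to −0.41 with adjusted p from 3.76e-05 to 0.098, above 0.05 without Con replicate 3 or 4 and without 5 of the MPTP libraries. Fosb followed with −0.45 (SE 0.13, adjusted p = 0.144) and Fos with −0.46 (SE 0.16, adjusted p = 0.199).

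Some genes of neighbouring brain regions also differed in midbrain between Con and the 4 MPTP groups. Whether they varied together with the members between libraries was not tested. The summed CPM of 10 cortex and hippocampus neuron genes was 488.5, 626.9, 236.6 and 369.4 in Con and 165.9 to 282.9 in the 16 libraries of the other groups, and none of the 10 was at 0 in any midbrain library. Of the 9 that were tested, 6 were called lower in the 4 MPTP groups, where 1.22% of all genes were called lower. The median log2 fold change of the 9 was −2.17. Summed striatum neuron genes were 167.3 to 182.7 CPM in the 4 Con libraries and at most 160.6 CPM in the other 16. Con replicate 3 was the Con library within the range of the others on the cortex and hippocampus list but not on the striatum list. It had 87.5 CPM of Egr1, and with it as the only Con library Egr1 was at −1.09. A group of 1 library has no spread of its own, so no test result is given for that fit. Summed choroid plexus genes were 42.4 to 1261 CPM in Con and 18.8 to 62.9 CPM in the others. In spinal cord the cortex and hippocampus sum was 290.3 to 343.2 CPM in all groups, with Emx1 and Fezf2 at 0 in 18 of 20 libraries. Most of that sum was Lamp5 (median 211.1 CPM) and Rasgrf2 (median 91.9 CPM), while the median of Slc17a7 was 2.61 CPM. The sum is therefore not a measure of cortex RNA in spinal cord. The part of dissection in the midbrain levels of the members was not tested.

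Other early genes, from lists chosen beside the members, were examined in the same fits. Of 22 tested early transcription factors outside the members, 4 were called lower in midbrain of the 4 MPTP groups than in Con and none higher. The list median was −0.31. Of all tested genes 1.22% were called lower and 0.0541% higher there. They were Egr3 at 6.30 ± 2.89 against 23.9 ± 8.62 CPM (log2 fold change −1.96, SE 0.25, adjusted p = 0.000509), Egr4 (−1.65, adjusted p = 0.00256), Fosl2, an AP-1 subunit (−1.18, adjusted p = 0.00324), and Nr4a3, a relative of Nr4a1 (−1.69, adjusted p = 0.00922). Egr4, Fosl2 and Egr3 were also called lower in MPTP-SU than in Con, where 0.613% of all genes were called lower. In MPTP-SU against MPTP-Veh 1 of the 22 was called, Jund, at 74.6 ± 18.5 against 183.2 ± 202.9 CPM (SD, n = 4 each) and a fitted log2 difference of −1.29 (SE 0.44, adjusted p = 0.0453), where 13.5% of all genes were called. Without MPTP-Veh replicate 4 the Jund value was −0.13 (adjusted p = 0.641) and none of the list was called, where 3.4% of all genes were. In spinal cord 0 of 23 were called in any of these comparisons, by edgeR. The lowest p there for MPTP-SU against MPTP-Veh was that of Klf2 (unadjusted p = 0.0312). For the 4 MPTP groups against Con 7 were lower and 3 higher at an unadjusted p below 0.05. Of all tested genes 7.68% were lower and 6.84% higher at that limit.

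Early signalling regulators, such as phosphatases and growth arrest genes, gave 1 lower call of 22 in midbrain of the 4 MPTP groups. It was Plk2 at −0.63 (SE 0.13, adjusted p = 0.0151), where 1.22% of all genes were called lower. For MPTP-SU against MPTP-Veh 2 were called higher, Dusp6 (0.85) and Dusp14 (0.80), and 2 lower, Ppp1r15a (−0.63) and Gadd45g (−1.17), where 13.5% of all genes were called. Without MPTP-Veh replicate 4 only Dusp6 of these was called (0.74, adjusted p = 0.0455), where 3.4% of all genes were. Late effectors that early transcription factors switch on gave 2 higher, Inhba (1.12) and Rgs4 (1.20), and 3 lower, Sst (−0.85), Penk (−0.998) and Crh (−1.37), of 17 in the same comparison, with a median of −0.00054. Without that library all but Crh (−1.08, adjusted p = 0.101) were called. Of 24 upstream kinases and factors, 5 were called higher there with a median of 0.25, and none without that library (median 0.13). In spinal cord none of the 3 lists had a call in any of these comparisons.

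The tissues were compared in a joint fit of the 40 libraries, in which 22% of 17426 genes were called. Egr2 was lower in midbrain, at 0.471 ± 0.300 CPM against 5.54 ± 2.19 CPM (SD, n = 20 each), with a log2 difference of −3.59 (SE 0.23, adjusted p = 4.74e-16). Dusp1 was higher, at 16.9 ± 4.72 CPM against 10.5 ± 1.37 CPM and 0.68 (SE 0.09, adjusted p = 5.55e-08), and Ier2 at 4.16 ± 3.03 CPM against 2.56 ± 0.582 CPM and 0.63 (SE 0.16, adjusted p = 0.000727). The Ier2 difference fell under the fold limit without midbrain MPTP-Veh replicate 4 (0.46), without midbrain MPTP-SU+T replicate 4 (0.58), with a replicate block of arm and number (0.57) and with limma-voom (0.55), with adjusted p from 0.000429 to 0.00301. Junb (0.33), Egr1 (0.28) and Npas4 (−0.24) passed the adjusted p under that limit, and Fos gave 0.03 (SE 0.11). In Con mice alone, where 16.4% of genes were called, Junb was called at 0.82 (SE 0.24, adjusted p = 0.00898) beside Egr2 at −3.40, and Dusp1 (0.40) and Ier2 (0.24) were not. No member had a treatment effect that differed between tissues in any of the 5 comparisons at an adjusted p below 0.05, where 3.12%, 16.8%, 0%, 0% and 0.379% of genes did, in the order of the pairwise comparisons above. The lowest unadjusted p was 0.0333, for Ier2 in MPTP-SU against MPTP-Veh, and 4 of the 50 tests had an unadjusted p below 0.05.

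Within groups, levels of the members varied together among midbrain libraries. After subtraction of group means, with permutation within groups, 44 of 45 pairs had a positive Pearson r over the 20 libraries, with a median of 0.51, and 23 pairs had an adjusted permutation p below 0.05 by both Pearson and Spearman. The highest were Nr4a1 with Ier2 (r = 0.82, rho = 0.71, adjusted permutation p = 0.00775 and 0.0111) and Dusp1 with Ier2 (r = 0.81, rho = 0.80, adjusted permutation p = 0.00775 and 0.0109). Junb with Arc gave r = 0.76 and rho = 0.77 (adjusted permutation p = 0.0045 and 0.003). Without the 2 libraries farthest from the median of the gene named first, these were 0.68, 0.77 and 0.66, and 16 of the 23 pairs kept an r above 0.5. Without MPTP-Veh replicate 4 the median r was 0.50, while the median r of Fosb with the other 9 fell from 0.32 to 0.0018. MPTP-SU replicate 1 held the lowest of the 20 midbrain values for 5 members, and MPTP-Veh replicate 4 the highest for 4.

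In spinal cord 39 of 45 pairs were positive, with a median r of 0.35, and no pair passed by both measures. The highest was Junb with Arc (r = 0.72, rho = 0.76, adjusted permutation p = 0.114 and 0.0459, r without the 2 farthest libraries 0.66). Fos with Egr1 gave r = 0.62 and rho = 0.59 (adjusted permutation p = 0.141 and 0.12, r without the 2 farthest libraries 0.40). Fosb was the least coupled member there too, with a median r of 0.090. The difference between tissues in these correlations was not tested, and points share depth and tissue composition within a library.

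**Figure D5:**
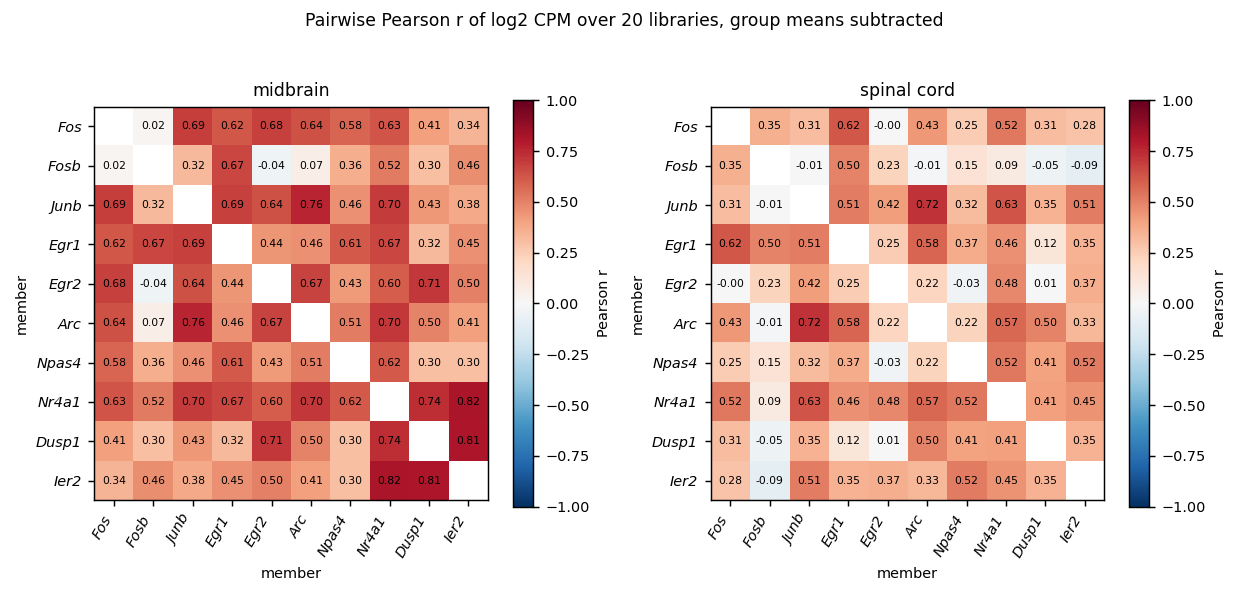
Pearson r of log2 CPM between each pair of the 10 members over 20 libraries after subtraction of group means, midbrain at left and spinal cord at right; both axes list the members and colour runs from −1 to 1. Midbrain cells are mostly positive with a median of 0.51, the rows of Fosb are palest, and the spinal cord median is 0.35.

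The genes most like the mean of the 10 members, after scaling each member and subtracting group means, were found for each tissue over 20 libraries. In midbrain 9 of the 10 most alike were Map3k12, a neuronal stress kinase (r = 0.87), Znfx1 (0.87), Adcy6, an adenylyl cyclase (0.87), Dnase1l2 (0.87), Scrt1 (0.86), Fcho1 (0.86), Rce1 (0.86), Pick1 (0.86) and Gcdh (0.86). In spinal cord they were Megf6 (0.86), Ntn1 (0.85), Foxd3 (0.85), Nod1 (0.84), Prag1 (0.83), Ctsl (0.83), Hic1 (0.83), Rnf7 (0.82), Vtn (0.82) and Ccn1 (0.80). Of the genes named, Ccn1 was on the list of early signalling regulators and the others were on no list. No gene was in both sets of 10.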

How the data were processed

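RNA from midbrain and spinal cord of 5 groups of mice was sequenced by the authors as poly(A) libraries, 20 per tissue. The submitters' processing notes name fastp, STAR, Salmon and GATK and the build GRCm39, with no versions. The deposited values are estimated counts per gene symbol, already in whole numbers, with no replicate pooled. The sources differ on the RNA extraction kit, and do not state which spinal segment was sequenced.

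Counts were tested per tissue with edgeR 4.0.16 (quasi-likelihood test, TMM, filterByExpr) in R 4.3.3 over all 20 libraries, and the tissues in a joint fit of 40, with Benjamini-Hochberg adjustment over all genes tested. Correlations used log2 CPM with a prior count of 2, group means subtracted, and 100000 permutations within groups. Exact permutation tests were two-sided. Transcript lengths are those of the longest annotated transcript of each symbol in the reference annotation, and promoters are from RefSeq. Limits on precision come from 4 libraries a group and the depths given above.

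The members and the gene lists were chosen with earlier results of these data known. The pooled comparison of the 4 MPTP groups, the Schwann cell list, the comparison of members between tissues and the fit with 1 Con library were added after the data had been seen. Named genes were all 10 members, up to 3 genes of the smallest p in each other list and comparison, and the 10 genes most like the members in each tissue. Some items are not reported here. Where a list had 4 or 5 calls, all were named, the further ones (Nr4a3, Dusp14, Rgs4 and Crh) after their values had been seen. Alternatives were DESeq2 1.42.0, limma 3.58.1 (voom), other scalings and filters, a replicate block and leaving out each library. The labels number replicates alike in all groups, but deviations of same-numbered libraries had a median correlation of 0.024 in midbrain and 0.0033 in spinal cord, so the numbers were not taken as pairs. Between tissues, same-numbered libraries of a group had a median correlation of 0.059 against −0.0099 for different numbers, and 4 of 20 were above 0.1. Of the 20 midbrain libraries, 12 were closest to their own number among the 4 spinal cord libraries of their group. The joint fit of 40 does not model such pairing, so its p-values do not take it into account.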

Additional observations from a re-analysis of the deposited data

Results flagged for a closer look

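In each group of 4 libraries the highest or lowest member value was compared with the rest by Dixon's ratio. Of 100 groups tested, 8 were past its 95% limit, where chance alone gives about 1 in 20. In midbrain, Nr4a1 in Con replicate 1 was high at 23.4 CPM against 14.1 to 14.98 CPM in the others. Fos in MPTP-Veh replicate 1 was low at 6.69 CPM against 11.8 to 13.2 CPM, and Nr4a1 in MPTP-SU replicate 1 was low at 6.37 CPM against 12.4 to 13.0 CPM.

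In spinal cord, Egr2 in Con replicate 2 was low at 2.11 CPM against 8.37 to 8.98 CPM, in the library that also had the lowest summed Schwann cell genes of the 20. Arc in MPTP-SU replicate 1 was low at 20.0 CPM against 22.7 to 22.9 CPM, and Fosb in MPTP-SU+S replicate 3 was low at 1.87 CPM against 2.49 to 2.57 CPM. Junb in MPTP-SU+T replicate 4 was high at 5.54 CPM against 4.18 to 4.29 CPM, and Nr4a1 in MPTP-SU+T replicate 1 was low at 8.87 CPM against 11.8 to 12.5 CPM. Causes were not tested.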

How the results depend on the processing

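No value changed sign while called. Counts of members called moved as follows, and the cause was not tested. Shares of all genes called were taken only for the edgeR main fit and the fit without midbrain MPTP-Veh replicate 4. The counts under other settings therefore cannot be set against such a share. With DESeq2 they were 2 for midbrain MPTP-SU against MPTP-Veh, 1 for MPTP-SU against Con in each tissue, 2 for the 4 MPTP groups in midbrain, and 4 (midbrain) and 1 (spinal cord) for any difference among groups. Library size alone gave 1 for midbrain MPTP-SU against Con and 2 for the 4 MPTP groups. The 8 libraries of midbrain MPTP-SU and Con alone gave 2. The fit with 1 Con library, assumed to vary like the other groups, put Egr1 at −1.09 for the 4 MPTP groups in midbrain. Its calls are not given, because 1 library has no spread of its own. In spinal cord, no filter gave 1 for MPTP-SU against Con and 1 for any difference, and at least 10 counts in every library gave 1 for any difference. With the replicate block, 1 spinal cord member differed among groups (Egr1, adjusted p = 0.0355), and no other count moved by over 1.5 times.

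Leaving out 1 library at a time gave 0 to 1 members for midbrain MPTP-Veh against Con, 0 to 2 for MPTP-SU against MPTP-Veh, 0 to 5 for the 4 MPTP groups and 1 to 3 for any difference. In spinal cord it gave 0 to 1 for MPTP-SU against Con, for the 4 MPTP groups and for any difference. The difference between tissues gave 0 to 1 for MPTP-Veh against Con and for MPTP-SU against MPTP-Veh. Midbrain Egr2, at 0 to 18 counts, is limited by depth.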
